A study of Mus musculus with 12 samples.

Results

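The transcription factor p53 (gene Trp53 in the mouse) is held at a low level by the ubiquitin ligase Mdm2 and accumulates when DNA is damaged or the cell is otherwise stressed. It then binds paired copies of a short palindromic element and raises the transcription of genes that halt the cell cycle, repair DNA or start apoptosis. Mdm2 is itself such a target and closes a feedback loop. Because p53 is regulated mostly through its protein, the mRNA levels of its targets are the usual transcript readout of its activity. In the liver, p53 in activated stellate cells is known for promoting their senescence.

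A set of 35 genes, made up of Trp53 and established p53 targets, was examined by symbol among the 12081 genes of an RNA sequencing study of mouse hepatic stellate cells, which store vitamin A in the healthy liver and become myofibroblasts on injury. Values were available for 34 of the 35 genes, and Ddb2 was not analysed here. All cells came from livers of Hk2 fl/fl mice, in which Cre recombinase deletes Hk2, which encodes hexokinase 2 of the glycolytic pathway. There were 4 groups of 3 libraries. LAC cells received an adenovirus expressing Cre fused to eGFP (Ad-Cre), with 6 days of culture and 10 mM lactate for 24 h. KO cells received the same Ad-Cre virus and 6 days of culture without added lactate. ACT cells received an adenovirus expressing eGFP alone (Ad-GFP) and 6 days of culture. QS cells were freshly isolated, quiescent and untreated. Both LAC and KO therefore received Cre and neither ACT nor QS did, so an effect of Cre itself and one of Hk2 loss cannot be told apart. The cells are primary isolates from density gradients, and no label ties a library to an animal or culture, so p-values reflect only how far these libraries scatter, which could be technical.

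Levels are the deposited normalized CPM (read counts scaled for the size of the library), which are not divided by transcript length, so levels are compared between samples of a gene and not between genes. Fold changes were computed as log2(CPM + 1) differences, so those of genes with low values are understated. A gene was called at a limma Benjamini-Hochberg adjusted p under 0.05 over all 12081 genes. The estimated depth was 8.67 to 11 M reads in LAC, 5.85 to 11.6 in KO, 11.4 to 14 in ACT and 4.35 to 10.1 in QS. On this estimate 3 reads correspond to 0.212 to 0.72 CPM. Hk2 itself was at 19.3 ± 0.575 CPM in LAC, 12.1 ± 1.48 CPM in KO, 181 ± 0.828 CPM in ACT and 71.2 ± 3.88 CPM in QS (mean ± SD, n = 3), and the libraries with Cre lay below all others.

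Windows from 250 bases before to 50 bases after annotated start sites were available from RefSeq (build GRCm38.p6, the same assembly as mm10) for 27 of the 34 genes, 43 windows in all. They were searched for the 10-base p53 half-site consensus, which reads the same on both strands, and for 2 adjoining half-sites with up to 2 departures from the consensus outside the fixed C and G of each half-site. A half-site was present in 11 windows (25.6%), belonging to Aen, Bax, Ccng1, Cdkn1a, Ei24, Gadd45a, Mdm2, Polk, Sesn1 and Trp53, against 8.36% of all 32851 windows of this length. These are shares of windows and not of genes, since windows of a gene can overlap, and those of Aen hold the same half-site. The 20-base site was present in 3 windows, those of Cdkn1a, Ccng1 and Cd80 (6.98%), against 0.326% of all windows. A match is a description of the sequence and not a measured binding site. The windows below belong to a pair of genes that rose in KO (Cdkn1a and Ccng1) and to both genes that fell (Sesn1 and Cd80), and capitals mark the matches. Cdkn1a has 2 half-sites at the first of its annotated starts, on the plus strand of chr17:29090729-29091028. The second of them lies within a 20-base site that departs from the consensus at 1 base and starts 51 bases before that start. The window of its other annotated start, chr17:29093519-29093818, has no match. Ccng1 has a 20-base site with 1 departure on the minus strand of chr11:40755237-40755536, starting 195 bases before its start site. Sesn1 has a half-site at the second of its annotated starts, on the plus strand of chr10:41887189-41887488, and Cd80 a 20-base site with 2 departures on the plus strand of chr16:38458683-38458982.
Cdkn1a: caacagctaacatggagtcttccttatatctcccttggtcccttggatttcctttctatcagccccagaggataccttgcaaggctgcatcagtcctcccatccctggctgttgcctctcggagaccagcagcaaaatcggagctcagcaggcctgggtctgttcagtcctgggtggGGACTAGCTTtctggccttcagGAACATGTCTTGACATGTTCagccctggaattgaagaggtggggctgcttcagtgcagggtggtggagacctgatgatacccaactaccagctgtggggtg
Ccng1: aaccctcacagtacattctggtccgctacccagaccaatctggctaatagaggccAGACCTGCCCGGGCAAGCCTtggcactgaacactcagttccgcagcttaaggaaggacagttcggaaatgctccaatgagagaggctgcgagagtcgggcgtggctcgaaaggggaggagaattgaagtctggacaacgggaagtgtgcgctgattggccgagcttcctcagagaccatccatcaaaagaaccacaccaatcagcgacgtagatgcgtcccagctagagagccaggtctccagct
Sesn1: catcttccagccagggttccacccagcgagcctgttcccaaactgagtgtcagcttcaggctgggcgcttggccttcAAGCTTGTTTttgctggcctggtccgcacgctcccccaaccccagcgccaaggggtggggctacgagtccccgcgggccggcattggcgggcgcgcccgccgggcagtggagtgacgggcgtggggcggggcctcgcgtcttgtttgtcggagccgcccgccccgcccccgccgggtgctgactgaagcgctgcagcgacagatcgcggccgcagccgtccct
Cd80: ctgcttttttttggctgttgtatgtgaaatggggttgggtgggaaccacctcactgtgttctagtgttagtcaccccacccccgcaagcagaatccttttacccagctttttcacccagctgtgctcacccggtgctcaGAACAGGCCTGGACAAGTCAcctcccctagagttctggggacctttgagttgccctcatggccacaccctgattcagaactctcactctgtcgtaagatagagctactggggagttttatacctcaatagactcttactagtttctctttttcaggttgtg

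In KO, 27 of the 34 genes were higher and 2 were lower than in ACT, a comparison in which 36% of the 12081 genes were higher and 26.3% lower. In LAC, 30 were higher and 2 lower than in ACT, with 27.8% and 21.7% of all genes. Median log2 fold changes of the 34 genes were 0.65 for KO against ACT and 0.72 for LAC against ACT, while those of all genes were 0.07 and 0.03. Both comparisons share the ACT libraries. Between LAC and KO, which differ by lactate, 11 of the genes were higher and 12 lower in LAC, against 20% and 21% of all genes. The group with the highest mean was LAC for 15 genes, KO for 12, ACT for 1 (Sesn1) and QS for 6, and the lowest was QS for 20, ACT for 11, KO for 3 and LAC for 0. The heat map of all genes by library shows the ACT and QS columns mostly below the mean and the LAC and KO columns mostly above it.

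**Figure D1:**
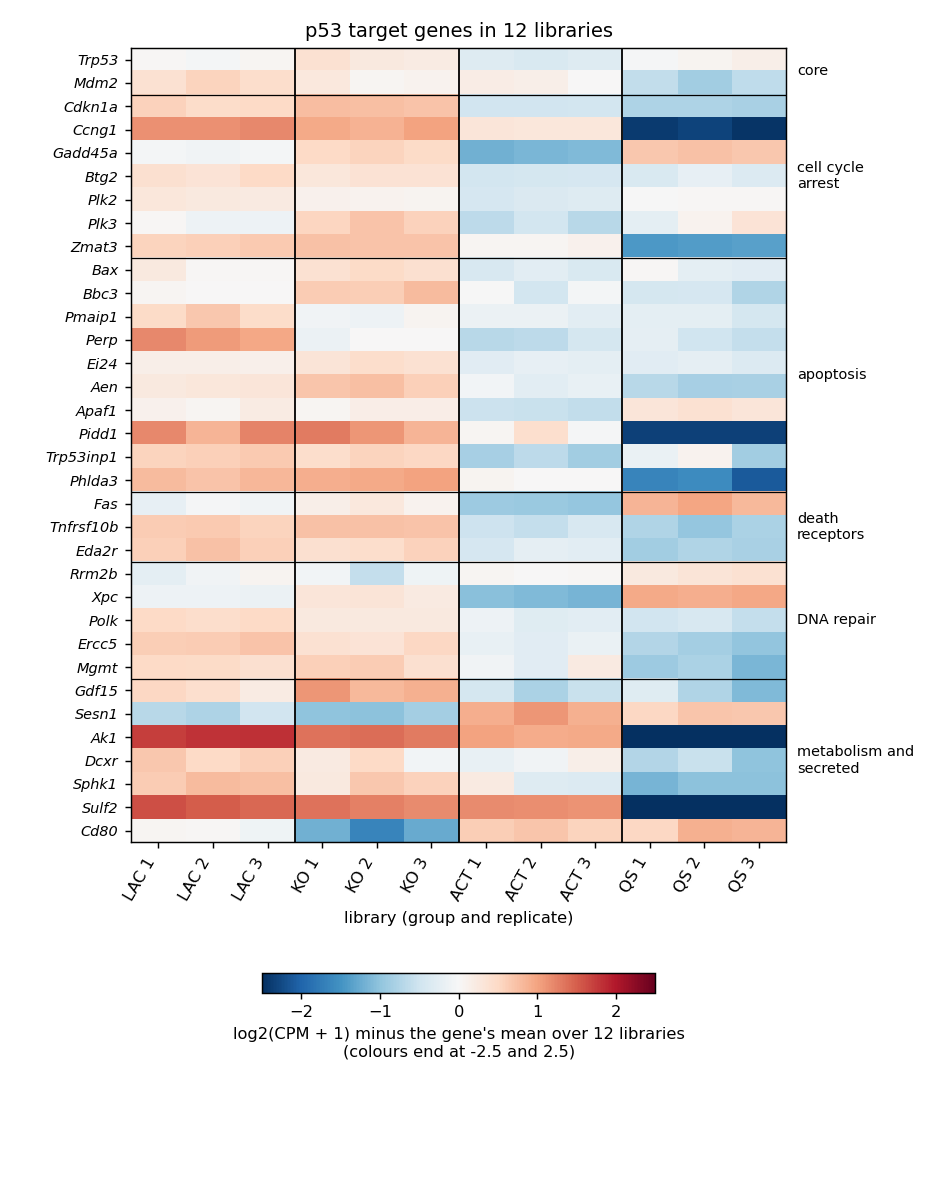
Level of each of 34 p53 target genes in each of 12 libraries, as log2(CPM + 1) minus the gene's mean over the 12 libraries, with genes grouped by role (rows) and libraries by group (columns). Most rows are above their mean in LAC and KO, Sesn1 and Cd80 are lower there than in ACT, and Ccng1, Pidd1, Ak1 and Sulf2 are far below their mean in QS.

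Trp53 and the gene of its main inhibitor, Mdm2, were both higher in LAC than in ACT, and Trp53 alone of the pair was called higher in KO than in ACT. Trp53 (mm10, chromosome 11, 69580359 to 69591873, plus strand) was at 105, 99.3 and 106 CPM in LAC, 134, 121 and 119 in KO, 82.1, 78.9 and 82.3 in ACT and 101, 108 and 114 in QS. Its KO libraries were the highest and its ACT libraries the lowest, with no overlap between these groups. It was called higher in KO than in ACT (log2 fold change 0.61, SE 0.056, limma adjusted p = 3.20e-07) and in LAC than in ACT (0.35, adjusted p = 1.41e-04), lower in LAC than in KO (-0.27, adjusted p = 0.00168) and lower in ACT than in QS (-0.40, adjusted p = 1.70e-05). Mdm2, on chromosome 10 (117688875 to 117710758, minus strand), was at 163, 183 and 171 CPM in LAC, 151, 129.9 and 132 in KO, 142, 138 and 125 in ACT and 81.6, 68 and 80.2 in QS. Its KO and ACT libraries overlapped (log2 fold change 0.03, SE 0.0789, limma adjusted p = 0.771), whereas every LAC library lay above every KO and ACT library. Mdm2 was called higher in LAC than in ACT (0.35, adjusted p = 0.00207), higher in LAC than in KO (0.32, adjusted p = 0.00513) and higher in ACT than in QS (0.81, adjusted p = 3.89e-07).

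All 7 measured genes of cell cycle arrest and growth control were higher in KO than in ACT and in LAC than in ACT. Of all genes 36% and 27.8% were higher in these comparisons. Cdkn1a, which encodes the cyclin-dependent kinase inhibitor p21 (chromosome 17, 29090976 to 29100727, plus strand), was at 569, 524 and 545 CPM in LAC, 659.9, 643 and 629 in KO, 275, 275 and 279 in ACT and 225, 223 and 219.6 in QS. The 4 groups did not overlap in any pair. KO held 2.33 times the ACT level (log2 fold change 1.22, SE 0.0345, limma adjusted p = 7.86e-13), and LAC was lower than KO (-0.24, adjusted p = 8.50e-05) but higher than ACT (0.98, adjusted p = 2.08e-11). Gadd45a, a stress gene that binds p21 and the sliding clamp PCNA, was at 41.2, 39.7 and 41.1 CPM in LAC, 60.6, 62.9 and 59.4 in KO, 17.8, 18.7 and 19.1 in ACT and 68.6, 71.1 and 68.6 in QS. It was the member of this role that rose most in KO (log2 fold change 1.66, limma adjusted p = 5.60e-12), with LAC between KO and ACT, and its QS libraries were the highest of all. Plk3, a stress-activated polo-like kinase, was at 23.6, 21.2 and 21.2 CPM in LAC, 34.3, 38.7 and 35.2 in KO, 14.4, 16.7 and 14 in ACT and 19.4, 24.9 and 29.7 in QS. It had a like order of KO, LAC and ACT, with 1.21 for KO against ACT and -0.69 for LAC against KO, and its exons overlap those of Tctex1d4 on the opposite strand, so its reads may be shared.

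Ccng1, the gene of cyclin G1, which recruits a phosphatase to Mdm2, was at 1249, 1248 and 1307 CPM in LAC, 1085, 1029 and 1132 in KO, 700.3, 685 and 683 in ACT and 106, 112 and 103 in QS. Its mean was lowest in QS and higher in ACT, KO and LAC in that order, and no group overlapped another. Its log2 fold changes were 2.68 for ACT against QS, 0.65 for KO against ACT and 0.23 for LAC against KO (limma adjusted p = 5.43e-16, 5.71e-09 and 4.96e-04). Zmat3, an RNA-binding zinc finger protein, was at 173, 177 and 184 CPM in LAC, 196, 193 and 192 in KO, 121, 121 and 127 in ACT and 42.6, 44 and 44.9 in QS. It had its highest values in KO and its lowest in QS (log2 fold change 0.65 for KO against ACT and -0.12 for LAC against KO). The call between LAC and KO (limma adjusted p = 0.0254) was lost without KO replicate 1 or 2 or LAC replicate 1 or 2, with adjusted p up to 0.102 over the alternatives. Btg2, an antiproliferative gene, was at 104, 99.5 and 112 CPM in LAC, 95.5, 101 and 101 in KO, 56.7, 57.5 and 58.6 in ACT and 60.3, 68.4 and 62 in QS. Its LAC and KO libraries overlapped and both groups lay above ACT and QS (0.77, adjusted p = 3.88e-08 for KO against ACT). Plk2, another polo-like kinase, averaged 666 ± 16.1 CPM in LAC, 597 ± 9.5 CPM in KO, 434 ± 15.2 CPM in ACT and 568 ± 8.93 CPM in QS (mean ± SD, n = 3), and was called higher in KO than in ACT (log2 fold change 0.46) and higher in LAC than in KO (0.16).

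**Figure D2:**
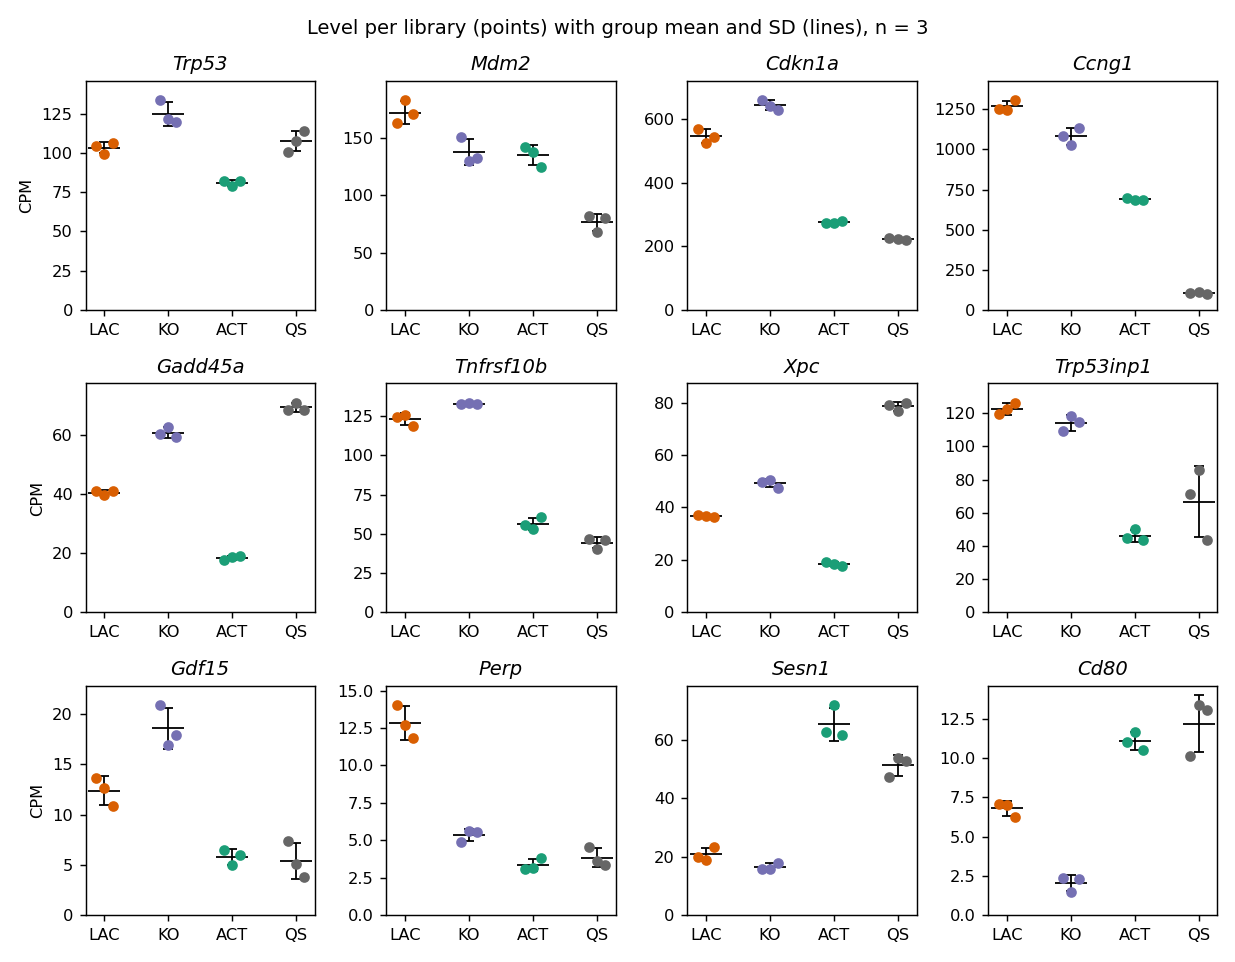
Level in CPM (vertical axes, from 0) of 12 p53 target genes in the LAC, KO, ACT and QS groups, with a point per library and lines for the group mean and SD (n = 3). Cdkn1a, Gadd45a, Xpc and Gdf15 are highest or second highest in KO, Ccng1, Mdm2 and Perp are highest in LAC, and Sesn1 and Cd80 are lower in KO than in every other group.

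Of the 10 genes grouped under apoptosis, 9 were higher in KO than in ACT and none was lower, against 36% and 26.3% of all genes. Bax, the pore-forming BCL2 family protein of the outer mitochondrial membrane, was at 98, 84 and 84.3 CPM in LAC, 107, 115 and 109.5 in KO, 62.1, 68.3 and 62.8 in ACT and 83.9, 70 and 67.8 in QS. All KO libraries lay above those of the other groups (log2 fold change 0.77, SE 0.0809, limma adjusted p = 1.40e-06), and LAC was lower than KO (-0.32, adjusted p = 0.00643). Bax shares exon sequence with the overlapping gene model Gm45808 on the same strand, so its level is uncertain to that extent. Bbc3, which encodes the BH3-only protein Puma, was listed at 5.25, 5.05 and 5.09 CPM in LAC, 8.29, 8.2 and 9.34 in KO, 4.96, 3.39 and 4.82 in ACT and 3.45, 3.52 and 2.59 in QS, a low level throughout. It rose in KO (log2 fold change 0.84, limma adjusted p = 4.99e-04) and fell in LAC relative to KO (-0.65, adjusted p = 0.00642), and LAC against ACT was not called (0.20, adjusted p = 0.352). Pmaip1, the gene of the BH3-only protein Noxa, was at 54.4, 62.4 and 54 CPM in LAC, 36.4, 35.4 and 40.9 in KO, 35.2, 34.9 and 32.3 in ACT and 32.5, 32.6 and 28.2 in QS. It was not called in KO against ACT (log2 fold change 0.13, limma adjusted p = 0.189), and it rose in LAC relative to KO (0.59, adjusted p = 7.83e-05), where all 3 libraries lay above all others.

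Perp, a tetraspan membrane protein gene of desmosomes and apoptosis, was at 14, 12.7 and 11.8 CPM in LAC, 4.87, 5.6 and 5.55 in KO, 3.04, 3.12 and 3.79 in ACT and 4.54, 3.6 and 3.34 in QS. The LAC level was 2.4 times the KO level (log2 fold change 1.12, SE 0.152, limma adjusted p = 4.61e-05), and KO was in turn above ACT (0.56, adjusted p = 0.00579). Markers of mesothelial and biliary epithelium, cells that also express desmosomal genes, were higher in LAC than in KO as well (7 of 11 called higher, summed level 1121 to 1139.8 CPM in LAC and 192 to 195 CPM in KO). Their sum was 5214 to 5398 CPM in ACT, where Perp was at its lowest, and most of it was Spp1, which averaged 5084 CPM there. Wt1, Upk3b, Lrrn4 and Upk1b of this list were also highest in ACT. The keratin genes Krt8, Krt18 and Krt19 were lowest in ACT among the cultured groups, with Krt18 at 32.7 CPM in LAC, 25.4 in KO and 5.1 in ACT. The part of mesothelial and biliary cells in the level of Perp was not tested. Aen, an apoptosis-enhancing nuclease of the nucleus and nucleolus, was at 107, 109.7 and 111 CPM in LAC, 146, 151 and 136 in KO, 85.1, 74.5 and 79.3 in ACT and 55.1, 50.2 and 50.8 in QS. Ei24, a membrane protein gene of the endoplasmic reticulum linked to autophagy, was at 139, 139 and 137 CPM in LAC, 157, 172 and 165 in KO, 103, 109 and 106 in ACT and 103, 108 and 98.8 in QS. Both were highest in KO and intermediate in LAC, with log2 fold changes of 0.85 and 0.63 for KO against ACT and of -0.40 and -0.24 for LAC against KO.

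Apaf1, the scaffold of the apoptosome, was at 136, 130.2 and 145 CPM in LAC, 131, 141 and 142 in KO, 86.6, 85.1 and 82.3 in ACT and 157, 164 and 157 in QS. Its QS libraries were the highest and its ACT libraries the lowest, and LAC and KO overlapped. Trp53inp1, a p53-induced cofactor of p53 phosphorylation and autophagy, was at 119, 122 and 126 CPM in LAC, 109, 118 and 115 in KO, 44.9, 50.3 and 43.6 in ACT and 71.2, 85.5 and 43.3 in QS. Its QS libraries were widely spread and overlapped with ACT, whereas LAC and KO lay above both (1.29, adjusted p = 1.35e-05 for KO against ACT). Phlda3, which competes with the kinase Akt for membrane lipids, was at 77.4, 73.5 and 79 CPM in LAC, 83.6, 86.2 and 89.5 in KO, 46.5, 44.7 and 44.7 in ACT and 13.4, 14.2 and 9.54 in QS. It rose in KO (log2 fold change 0.92, limma adjusted p = 4.13e-06), and LAC against KO was not called (-0.17, adjusted p = 0.221) except without QS replicate 3 or with only the 2 groups in the fit (adjusted p up to 0.0281). Pidd1, the scaffold that activates caspase-2, was listed at 10.6, 8.01 and 10.8 CPM in LAC, 11.3, 9.74 and 7.98 in KO and 4.18, 5.66 and 3.94 in ACT, and at 0 in all 3 QS libraries. LAC and KO overlapped and both lay above ACT (0.93, adjusted p = 5.87e-04 for KO against ACT).

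All 3 death receptor genes rose in KO relative to ACT, as did 36% of all genes. Tnfrsf10b, the death-domain receptor of the apoptosis-inducing ligand TRAIL in the mouse, was at 125, 126 and 119 CPM in LAC, 133, 134 and 132 in KO, 55.6, 53 and 60.6 in ACT and 46.9, 40.4 and 45.9 in QS. LAC and KO lay above ACT and QS without overlap, with 2.36 times the ACT level in KO (log2 fold change 1.23, SE 0.0626, limma adjusted p = 5.23e-10) and no call between LAC and KO (-0.11, adjusted p = 0.178). Fas, the receptor of Fas ligand, was at 16.6, 18.8 and 18.2 CPM in LAC, 21.4, 23.5 and 20.5 in KO, 9.86, 9.68 and 9.37 in ACT and 35.4, 39 and 34.6 in QS. It was highest in QS, lowest in ACT, and higher in KO than in ACT (1.10, adjusted p = 1.19e-07). Its lower level in LAC than in KO (-0.27, adjusted p = 0.0284) was not called without KO replicate 1 or 2 or LAC replicate 1 or 3 (adjusted p up to 0.109 over the alternatives). Eda2r, a receptor of the ectodysplasin isoform EDA-A2, was at 111, 121 and 111 CPM in LAC, 96, 99.4 and 109 in KO, 53.8, 62.1 and 60.02 in ACT and 39.2, 42.5 and 41.2 in QS. It was higher in KO than in ACT (0.78, adjusted p = 1.67e-07) and not called between LAC and KO (0.17, adjusted p = 0.0655), although it was called without ACT replicate 1 or KO replicate 3 (adjusted p up to 0.0496).

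DNA repair genes rose in KO relative to ACT in 4 of 5 measured cases, against 36% of all genes. Xpc, the damage sensor of global nucleotide excision repair (chromosome 6, 91489305 to 91515888, minus strand), was at 37.1, 36.8 and 36.4 CPM in LAC, 49.7, 50.7 and 47.5 in KO, 19.1, 18.4 and 17.6 in ACT and 79, 76.7 and 79.98 in QS. Its QS libraries were the highest, ACT held the lowest, and KO lay above LAC, with no overlap between any of the groups. The log2 fold change was 1.38 for KO against ACT and -0.41 for LAC against KO (limma adjusted p = 5.91e-11 and 6.32e-05). Ercc5, the 3′ endonuclease of the same pathway, was at 59.2, 60.4 and 64 CPM in LAC, 50.7, 49.4 and 55.6 in KO, 33.7, 31.6 and 34 in ACT and 22.8, 20.9 and 18.8 in QS. It followed another order, with LAC above KO (0.24, adjusted p = 0.0263), KO above ACT (0.63, adjusted p = 6.92e-06) and QS lowest. The call between LAC and KO was lost without KO replicate 1 or 2 or LAC replicate 2 or 3 (adjusted p up to 0.0992). Mgmt, which removes alkyl groups from guanine, was at 19.8, 19.3 and 18.3 CPM in LAC, 21.2, 21.6 and 18.2 in KO, 12.7, 11 and 16 in ACT and 6.82, 7.44 and 5.64 in QS, and rose in KO (log2 fold change 0.59, limma adjusted p = 0.00213), with LAC and KO overlapping. Polk, a translesion polymerase, averaged 73.5 ± 1.64 CPM in LAC, 62.3 ± 0.301 CPM in KO, 44.4 ± 2.86 CPM in ACT and 37 ± 2.65 CPM in QS (mean ± SD, n = 3). It was called higher in KO than in ACT (0.48) and in LAC than in KO (0.24). Rrm2b, the p53-inducible subunit of ribonucleotide reductase, averaged 21.3 ± 2.31 CPM in LAC, 19 ± 3.76 CPM in KO, 23 ± 0.354 CPM in ACT and 28.4 ± 1.28 CPM in QS. It was the 1 repair gene without a call in KO against ACT (-0.28, limma adjusted p = 0.0693) or in LAC against ACT (-0.11, adjusted p = 0.512), and it was called lower in KO than in ACT without KO replicate 1 or 3 (adjusted p up to 0.0406).

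Genes of metabolism, secretion and cell surface signals rose in KO relative to ACT in 3 of 7 cases and fell in 2. These counts are near the shares of all genes, 36% higher and 26.3% lower. Gdf15, a secreted stress hormone of the TGF-beta superfamily, was at 13.7, 12.7 and 10.8 CPM in LAC, 20.9, 17 and 17.9 in KO, 6.51, 4.94 and 5.98 in ACT and 7.33, 5.04 and 3.76 in QS. The KO level was 3.2 times the ACT level (log2 fold change 1.53, SE 0.188, limma adjusted p = 7.25e-06), and LAC was lower than KO (-0.55, adjusted p = 0.031). This call was lost without KO replicate 1 or 3 or LAC replicate 2 or 3 (adjusted p up to 0.113 over the alternatives). Sesn1, a leucine-sensing inhibitor of the growth kinase mTORC1 (chromosome 10, 41809935 to 41908424, plus strand), was at 19.9, 18.9 and 23.4 CPM in LAC, 15.9, 15.7 and 17.8 in KO, 62.6, 71.9 and 61.6 in ACT and 47.2, 53.8 and 52.8 in QS. It went against most members, since every LAC and KO library lay below every ACT and QS library (log2 fold change -1.93, SE 0.0956, limma adjusted p = 3.78e-10, in KO relative to ACT, and -1.61, adjusted p = 5.31e-09 for LAC against ACT). LAC was above KO by a log2 fold change of 0.31 (limma adjusted p = 0.018), which was lost without KO replicate 1 or 2 or LAC replicate 3 (adjusted p up to 0.0875 over the alternatives). Cd80, a costimulatory ligand of antigen-presenting cells, was at 7.1, 7.01 and 6.26 CPM in LAC, 2.37, 1.48 and 2.28 in KO, 11, 11.7 and 10.5 in ACT and 10.1, 13.4 and 13.1 in QS. It fell in KO relative to ACT (-2.00, adjusted p = 7.05e-08) and was higher in LAC than in KO (1.37, adjusted p = 1.06e-05).

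Macrophages are antigen-presenting cells, and the summed level of 20 macrophage markers followed the same order of LAC, KO and ACT as Cd80. It was 4119.8 to 4168 CPM in LAC, 182 to 187 CPM in KO, 16673 to 17058 CPM in ACT and 6808 to 6859.6 CPM in QS. The larger part of the ACT sum was Lyz2, which averaged 9350 CPM there. Between LAC and KO, 15 of the 20 markers were called higher and 1 lower, against 20% and 21% of all genes. QS did not share the order, since Cd80 averaged 12.2 CPM in QS and 11.1 CPM in ACT. The part of macrophages in the values of Cd80 was not tested. In bulk RNA, fewer cells of a type and less RNA per cell cannot be told apart.

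Sphk1, a kinase that makes sphingosine 1-phosphate, was at 5.82, 6.69 and 6.45 CPM in LAC, 4.21, 6.07 and 5.58 in KO, 4.17, 2.53 and 2.46 in ACT and 0.969, 1.17 and 1.16 in QS. It rose in KO (log2 fold change 0.65, limma adjusted p = 0.0109), a call that was lost without ACT replicate 3 (adjusted p = 0.0513). Ak1, a cytosolic adenylate kinase, averaged 139 ± 5.02 CPM in LAC, 102 ± 3.51 CPM in KO, 77.5 ± 2.2 CPM in ACT and 1.41 ± 0.564 CPM in QS, and its rise in KO (0.40, limma adjusted p = 0.0133) was not called with a pseudocount of 0.1 (adjusted p = 0.1002). Sulf2, an extracellular sulfatase that trims heparan sulfate, averaged 178 ± 10.5 CPM in LAC, 148 ± 8.78 CPM in KO, 138 ± 2.92 CPM in ACT and 3.001 ± 0.373 CPM in QS. Its exons overlap those of Ncoa3 on the opposite strand. Sulf2 was not called in KO against ACT (0.10, adjusted p = 0.238), nor was Dcxr, an L-xylulose reductase gene (0.26, adjusted p = 0.187), and both were called higher in LAC than in ACT (0.36 and 0.63).

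**Figure D3:**
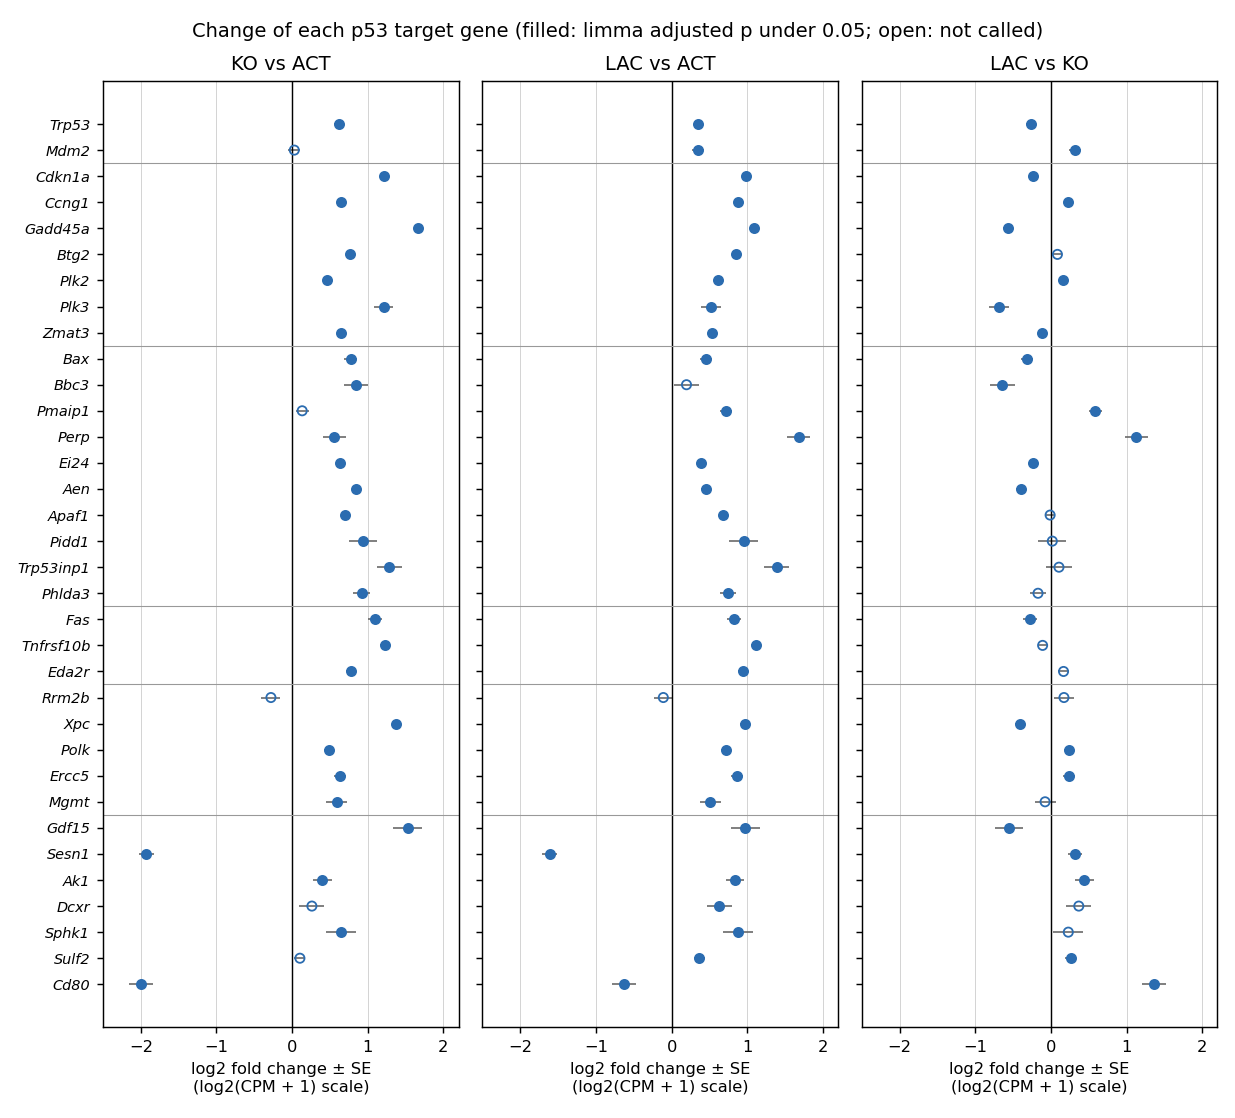
Log2 fold change with its SE (horizontal axes, log2(CPM + 1) scale) of each of 34 p53 target genes for KO against ACT, LAC against ACT and LAC against KO, where filled points passed the limma adjusted p threshold of 0.05 and open points did not. In both comparisons with ACT all called genes except Sesn1 and Cd80 lie to the right of 0, while in LAC against KO 11 called genes lie to the right and 12 to the left.

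The comparison of LAC with KO asks whether lactate, an end product of glycolysis, offsets the loss of Hk2. The genes called lower in LAC than in KO were Trp53, Cdkn1a, Gadd45a, Plk3, Zmat3, Bax, Bbc3, Ei24, Aen, Fas, Xpc and Gdf15. The genes called higher were Mdm2, Ccng1, Plk2, Pmaip1, Perp, Polk, Ercc5, Sesn1, Ak1, Sulf2 and Cd80. Thus 32.4% of the members were called higher and 35.3% lower, where the shares of all genes were 20% and 21%. The median log2 fold change of the members was 0.05, against -0.02 over all genes. The largest fall belonged to Plk3 (-0.69) and the largest rise to Cd80 (1.37), followed by Perp (1.12). Besides the calls of Zmat3, Fas, Ercc5, Gdf15 and Sesn1, those of Sulf2 (adjusted p = 0.0578 without LAC replicate 1) and Ak1 (adjusted p = 0.0981 with a pseudocount of 0.1) were lost in an alternative, and Dcxr was called higher without KO replicate 2 (adjusted p = 0.036). With 1 library left out, 9 to 12 members were called higher and 9 to 13 lower. LAC still exceeded ACT in 30 of 34 genes: Bbc3 and Rrm2b were not called, and Sesn1 and Cd80 were lower.

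Between ACT and QS, the same genes differed in both directions. Of 34, 17 were higher and 11 lower in ACT than in QS, against 38% and 35.5% of all genes, and the median log2 fold change was 0.28, against 0.03 over all genes. The largest rises belonged to Sulf2 (5.12), Ak1 (5.05) and Ccng1 (2.68), and Pidd1 was listed at 0 in QS. Xpc (-2.04), Gadd45a (-1.85) and Fas (-1.81) fell most. Cdkn1a was 1.24 times its QS level in ACT (0.31, adjusted p = 1.70e-06). The falls of Bax (-0.19), Btg2 (-0.14), Rrm2b (-0.30) and Trp53inp1 (-0.47) were each lost in several alternatives, with adjusted p up to 0.443, 0.682, 0.138 and 0.119. The number of genes called lower was 7 with an equal total per library, with quantile normalization, without ACT replicate 1 or without ACT replicate 3, in place of 11. Virus, culture and time cannot be told apart here, since QS cells received none of them.

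Further genes of the pathway were examined as lists that do not contain the members. Of 28 further p53 targets, 15 were higher and 5 lower in KO than in ACT (median log2 fold change 0.44), and 16 were higher and 4 lower in LAC than in ACT. The shares of all genes were 36% higher and 26.3% lower in KO than in ACT (median 0.07), and 27.8% and 21.7% in LAC than in ACT. Trp53i11 was at 46.7 ± 0.931 CPM in LAC, 104 ± 3.47 CPM in KO, 8.58 ± 1.26 CPM in ACT and 110.0 ± 5.8 CPM in QS (3.46, adjusted p = 1.09e-13, for KO against ACT). Ptp4a3, a protein tyrosine phosphatase gene, was at 39.7 ± 1.52 CPM in LAC, 56.7 ± 3.02 CPM in KO, 15.8 ± 0.643 CPM in ACT and 79.8 ± 3.83 CPM in QS (1.78, adjusted p = 1.39e-11, for KO against ACT). The means of both genes had the same order of groups as the summed endothelial markers, highest in QS, then KO, LAC and ACT. The means of the members Gadd45a, Apaf1, Fas and Xpc had this order too. In KO against ACT, 18 of 18 endothelial markers were higher. The part of endothelial cells in the values of Trp53i11, Ptp4a3 and these members was not tested. Dram1, a lysosomal membrane protein gene that promotes autophagy, was lower, with 7.79 ± 0.665 CPM in KO and 53.1 ± 3.16 CPM in ACT (-2.62, adjusted p = 2.05e-11). Steap3, a ferrireductase gene, also fell (-2.38, adjusted p = 1.45e-09). Macrophage markers fell in the same comparison (19 of 20 called lower), and their part in the falls of Dram1 and Steap3 was not tested.

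The share of p53 regulators called higher in KO than in ACT was below that of all genes, and the share called lower was near it. Of 26 measured regulators 7 were higher and 7 lower in KO than in ACT (median 0.07), or 26.9% and 26.9%, against 36% and 26.3% of all genes (median 0.07). Ppp1r13b, which encodes the p53-binding protein ASPP1, rose (1.26, adjusted p = 8.67e-11), as did Ppp1r13l, the gene of the inhibitory relative iASPP (0.74, adjusted p = 9.94e-04). Hipk2 and Dyrk2, which encode kinases of p53, fell (-0.90 and -0.65, limma adjusted p = 6.11e-07 and 1.06e-06).

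Cell cycle genes that p53 lowers indirectly, through p21 and the DREAM repressor complex, were mostly lower in KO and in LAC than in ACT. Of 25 such genes 17 were lower and 2 higher in KO than in ACT (median -0.52), and 14 were lower and 0 higher in LAC than in ACT (median -0.46). Of all genes 26.3% were lower and 36% higher in KO than in ACT, and 21.7% were lower and 27.8% higher in LAC than in ACT. Mki67, the gene of the proliferation antigen Ki-67, was at 162 ± 1.74 CPM in LAC, 133 ± 6.23 CPM in KO and 314 ± 2.46 CPM in ACT (-1.23, adjusted p = 3.08e-11 for KO against ACT). The mitotic cyclin genes Ccnb1 (-1.04, adjusted p = 7.75e-05) and Ccnb2 (-0.98, adjusted p = 1.48e-05) and the centromere histone gene Cenpa (-0.87, adjusted p = 0.00649) fell as well. Between LAC and KO, 3 were higher and 3 lower, with 20% and 21% of all genes. Against QS, 23 of the 25 were higher in ACT, with 38% of all genes.

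Most other apoptosis and repair genes were not called in KO against ACT. Of 22 BCL2 family, caspase and death signalling genes 8 were higher and 1 lower in KO than in ACT (median 0.06), or 36.4% and 4.55%, so the share of rises was that of all genes (36%) and the share of falls was under theirs (26.3%). The caspase gene Casp6 (0.63, adjusted p = 4.54e-05) rose, as did Birc3, an inhibitor of apoptosis (0.82, adjusted p = 2.75e-07), and Casp9, the initiator caspase of the apoptosome, fell (-0.70, adjusted p = 3.97e-05). Of 25 repair genes outside the members 5 were higher and 3 lower (median 0.00), or 20% and 12%, both under the shares of all genes. Ercc1 and Rev1 rose (0.84 and 0.67) and Ercc6 fell (-0.88), with limma adjusted p = 4.72e-04, 3.48e-05 and 2.96e-06. The means of Birc3 and Rev1 had the same order of groups as the summed endothelial markers, highest in QS, then KO, LAC and ACT. The part of endothelial cells in the values of Birc3 and Rev1 was not tested. The bars of shares by list show the members with the largest share of rises among these lists in KO against ACT and in LAC against ACT. Lists of cell type markers are not drawn there. Of those, the endothelial (100% and 100%) and stellate cell lists (83.3% and 91.7%) had larger shares of rises than the members (79.4% and 88.2%). The hepatocyte list did so in KO against ACT only (88.9%, and 5.56% in LAC against ACT).

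**Figure D4:**
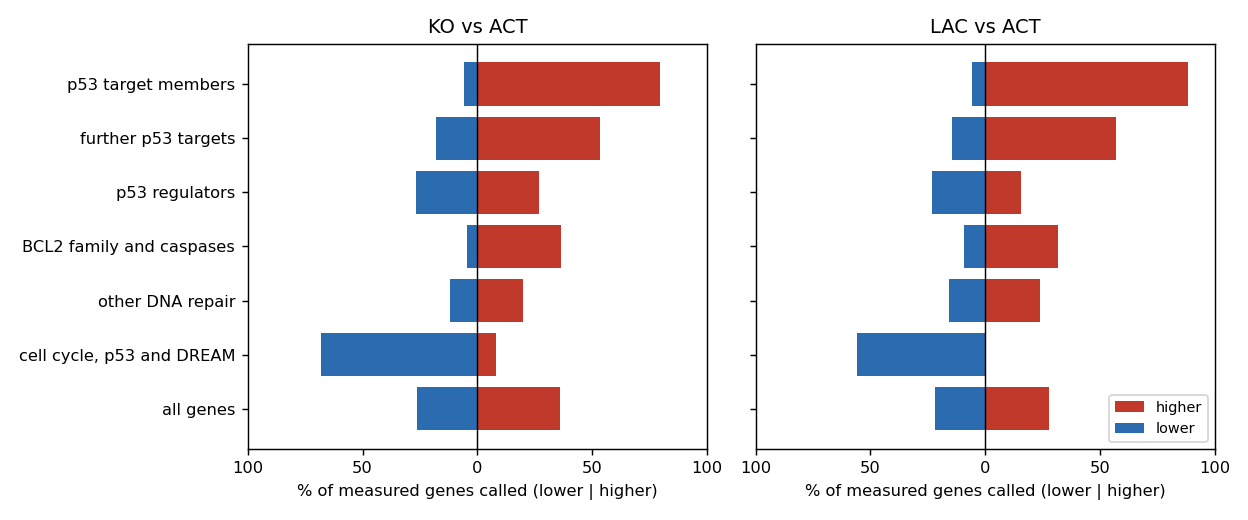
Percentage of measured genes called higher (right of 0) and lower (left of 0) at a limma adjusted p under 0.05, for the 34 p53 target members, 5 other lists and all 12081 genes, in KO against ACT and in LAC against ACT. In KO against ACT 79.4% of the members were higher, against 36% of all genes, and 68% of the cell cycle list was lower, against 26.3%.

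Markers of other liver cells differed between the groups beside all of these results. Endothelial markers were higher in KO than in ACT in 18 of 18 cases, with sums of 4465 to 4656 CPM in LAC, 8399.6 to 9349 CPM in KO, 673 to 691 CPM in ACT and 18375 to 18716 CPM in QS. Hepatocyte markers were higher in KO than in ACT in 16 of 18 cases and lower in 2. They summed to 378 to 395 CPM in LAC, 609 to 656 CPM in KO, 471 to 488 CPM in ACT and 2692 to 2733 CPM in QS. Most of the LAC and ACT sums was Trf and Ass1, which averaged 121 and 263 CPM in LAC and 305 and 114 CPM in ACT. Alb averaged 0.601 CPM in LAC, 157 CPM in KO and 10.6 CPM in ACT. Apoa2, Apoc3, Ahsg, Cps1 and Cyp2e1 were at 0 in every LAC library. Stellate cell markers summed to 1200.2 to 1259 CPM in LAC, 1174 to 1304 CPM in KO, 833 to 842 CPM in ACT and 3753 to 3835 CPM in QS. Most of the ACT sum was Des, Ecm1, Reln and Pdgfrb (means 346, 237, 107 and 95.7 CPM). Lrat, Ngfr and Colec11 averaged 3.09, 1.45 and 1.35 CPM there. Of the 12 markers 10 were called higher and 1 lower in KO than in ACT. Myofibroblast markers were lower in KO than in ACT in 10 of 10 cases, and their sums were 7751 to 8118 CPM in LAC, 3783 to 3989.9 CPM in KO, 15762 to 15819 CPM in ACT and 425 to 465 CPM in QS. Of 12 lymphocyte and neutrophil markers 1 had values, S100a8. Endothelial sums were higher in KO and LAC than in ACT, as were most of the 34 genes. The means of Gadd45a, Apaf1, Fas and Xpc had the same order of all groups as the endothelial sums. Endothelial and hepatocyte sums were highest in QS. That group had the lowest mean for 20 of the 34 genes and the highest for 6 of them (Gadd45a, Apaf1, Fas, Rrm2b, Xpc and Cd80). QS also differs from the other groups by virus, culture and time. The part of other cells in the values of the p53 targets was not tested.

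**Figure D5:**
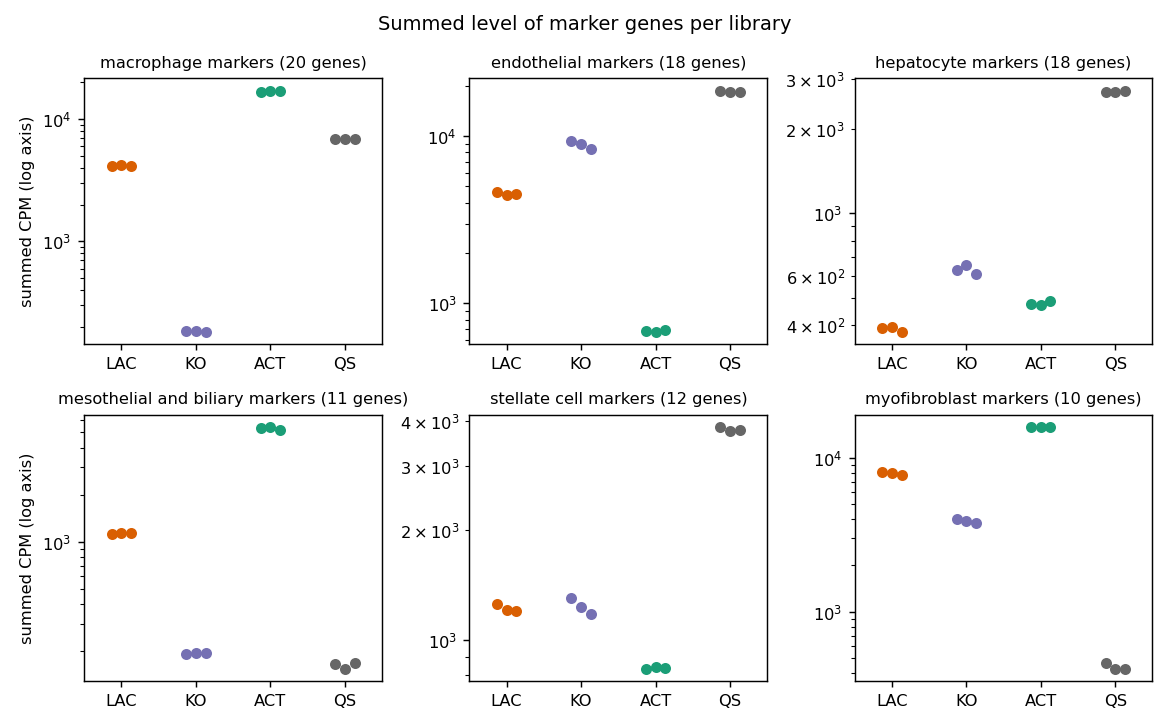
Summed CPM (log axes) of the measured markers of 6 cell types in each library, with a point per library, for the LAC, KO, ACT and QS groups. Macrophage and mesothelial or biliary sums are lowest or near lowest in KO and highest in ACT, endothelial sums are lowest in ACT and highest in QS, and myofibroblast sums fall in the order ACT, LAC, KO, QS.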

How the data were processed

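RNA was sequenced in 12 libraries of mouse hepatic stellate cells, 3 in each of 4 groups. Per the submitters' processing notes, the tools were kallisto 0.44.0, edgeR 3.8, cutadapt 1.18 and FastQC 0.11.8, and the build was mm10. The deposited values are a normalized signal per gene, named CPM by the authors in the table, whose totals differ between libraries. Whether strand was used in counting is not given in the sources used here. The p53 target genes, the other lists and the tests were chosen with earlier results of these data known. Log2(CPM + 1) was fitted with limma 3.58.1 (R 4.3.3) with a mean for each of the 4 groups, all 12 libraries, 8 residual degrees of freedom and an intensity trend, for genes with at least 1 CPM in 3 libraries, and p-values were adjusted over 12081 genes by the Benjamini-Hochberg method. Per-library values were given for Trp53, Mdm2, Cdkn1a and members with an absolute log2 fold change of at least 0.5 among the calls of KO against ACT or LAC against KO, and in other lists up to 4 genes with the largest calls in KO against ACT were named, some of which are not reported here. Depth was estimated from the smallest steps of low values, under which 19.7 to 25.8% of values lay within 0.01 of a whole read, so reads were not recovered and no count test was run. Coordinates are from GENCODE M21. The code recovered known changes when tested on simulated data. Alternatives were other pseudocounts, filters, scalings and fits, a replicate block, and leaving out each library.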

Additional observations from a re-analysis of the deposited data

How the results depend on the processing

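No fold change of a member reversed its sign past the threshold under any alternative. Of 1496 alternative values of members other than those leaving out a library, 1459 kept their side of the threshold, 26 lost the call and 11 gained one. Of 1632 values with a library left out 1578 kept their side, 47 lost and 7 gained the call. Direction was compared only where the main or the alternative value was called. Members called lower in ACT than in QS numbered 7 with an equal total per library and 7 with quantile normalization, against 11, and 7 to 10 with a library left out. Members called in KO against ACT numbered 28 to 30 with a library left out, and those in LAC against KO 18 to 24. In LAC against ACT they numbered 32 throughout. Same-numbered libraries did not deviate together (r between -0.042 and 0.086 over 18 pairs, against -0.077 to 0.053 over 36 others, none over 0.1). A replicate block left 27 members higher and 2 lower in KO against ACT, moved the calls over all genes to 4365 higher and 3177 lower, against 4354 and 3179, and added 1 call of a member (Eda2r in LAC against KO). Omitting the filter changed nothing, since every gene passed it. Members under 10 CPM in every library, Bbc3 and Sphk1, are limited most by depth.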
